A study of Mus musculus with 6 samples.

Results

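The 5 genes described here, Ly6a, Ly6c1, Ly6c2, Ly6d and Ly6e, encode small proteins of the lymphocyte antigen 6 family and were taken by name from the 24421 genes of the count table. Ly6a encodes stem cell antigen-1 (Sca-1). All 5 were present and passed the filter on low counts. RNA came from CD31+CD45- endothelial cells (ECs) sorted from the livers of wild-type C57BL/6J mice. The young group was 3 samples from mice aged 10 weeks. The aged group was 3 samples from mice aged 127, 131 and 136 weeks, and each aged sample is named here by its age. Neither group carried a transgene or received a treatment, and according to the study's methods the mice were female and animals with visible tumours or an enlarged liver or spleen were not used.

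Proteins of the Ly6 family share a compact fold held together by disulfide bonds. Most of them, including the products of these genes, are tethered to the outer face of the plasma membrane by a glycosylphosphatidylinositol (GPI) anchor. Sca-1 is best known as a marker of mouse haematopoietic stem cells and is also found on ECs. Ly6c1 and Ly6c2 encode the closely related proteins detected as Ly-6C, of which Ly6c2 is known from inflammatory monocytes and Ly6c1 from ECs. Ly6e is broadly expressed and, like Ly6a, is inducible by interferon. Ly6d is a marker of lymphoid progenitors committing to the B cell lineage and is also found on plasmacytoid dendritic cells and keratinocytes.

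The genes lie together on chromosome 15, within 349629 bases in the mm9 build used for the files (GENCODE annotation of the same build). Ly6d is at chr15:74592486-74593997 on the minus strand. Ly6e is at chr15:74785481-74790335 on the plus strand. Ly6a follows at chr15:74825308-74828064, Ly6c1 at chr15:74875447-74879260 and Ly6c2 at chr15:74938590-74942114, all on the minus strand. The stretch also holds other family genes, among them Ly6i between Ly6e and Ly6a. The counts sum reads over each gene, so values refer to whole genes and not to single exons.

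Ly6c1 and Ly6c2 are shown in sequence because their reads can be mistaken for each other. Their coding sequences in the GENCODE transcripts are both 396 bases long and differ at 9 bases. The first 100 bases hold 6 of these, written in capitals:
Ly6c1: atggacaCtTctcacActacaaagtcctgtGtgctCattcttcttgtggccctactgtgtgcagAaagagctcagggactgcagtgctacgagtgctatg
Ly6c2: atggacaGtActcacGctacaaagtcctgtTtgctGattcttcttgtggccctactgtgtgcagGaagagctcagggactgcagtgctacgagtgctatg
Over the full length the sequences were 97.7% identical, with 3 differences after base 100, and the longest run without a difference was 188 bases. Of the 322 windows of 75 bases, the read length, 114 held no difference. Over whole transcripts, 21.4% of the windows of Ly6c1 were found in Ly6c2 and 22.7% of those of Ly6c2 in Ly6c1. Ly6a shared 6 of 745 windows with Ly6i, and Ly6d and Ly6e shared none with any other gene. The values of Ly6c1 and Ly6c2 are therefore uncertain where a read could have come from either gene, most of all for Ly6c2, the far less abundant of the pair. The coding sequence of Ly6a was 82.0% identical to that of Ly6c1, while those of Ly6d and Ly6e were at most 53.8% identical to that of any other member.

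The promoter windows of these paralogs shown here were less alike than the coding sequences. The RefSeq table of promoters (GRCm38.p6), with windows of 300 bases around each gene's start, held Ly6c1 and Ly6c2 of the 5 members. It held 2 windows for each of these genes, and only the first of each was compared and searched. The windows are on the minus strand at chr15:75048788-75049087 for Ly6c1 and chr15:75111922-75112221 for Ly6c2, and a TATAAA is in capitals:
Ly6c1 promoter: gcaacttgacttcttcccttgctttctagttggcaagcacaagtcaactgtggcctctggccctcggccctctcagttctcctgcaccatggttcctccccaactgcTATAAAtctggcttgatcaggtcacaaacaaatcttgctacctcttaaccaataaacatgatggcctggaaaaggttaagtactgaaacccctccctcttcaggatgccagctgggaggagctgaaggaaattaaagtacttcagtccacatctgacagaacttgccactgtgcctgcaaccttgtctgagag
Ly6c2 promoter: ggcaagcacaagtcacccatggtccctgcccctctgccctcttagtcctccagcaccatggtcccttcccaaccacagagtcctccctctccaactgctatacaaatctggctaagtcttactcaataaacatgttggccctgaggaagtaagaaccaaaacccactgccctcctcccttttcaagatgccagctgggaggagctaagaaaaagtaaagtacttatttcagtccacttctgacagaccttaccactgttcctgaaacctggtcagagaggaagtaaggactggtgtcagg
Over the 282 columns where the windows could be aligned, 73.8% of the bases were identical. TATAAA was searched on both strands and was found once, 143 bases before the start of Ly6c1. It occurs in 13.6% of all promoters of this length. Interferon-related motifs were searched in the same way, the gamma-activated site as TTCNNNGAA and the interferon-stimulated response element as GAAA, any 2 bases and GAAA again. Neither was found in these windows, while 8.30% and 3.44% of all promoters held them.

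The libraries held 23001556 to 31651817 counts, so that 3 counts corresponded to 0.0946 to 0.135 CPM, the unit of counts scaled to library size. The defining EC gene Pecam1 (CD31) was at 1366 to 1635 CPM in every sample. Ptprc, which encodes CD45 and by which leukocytes were sorted out, was at 1.17 to 1.70 CPM in the young samples. In the aged samples Ptprc was at 7.56 CPM at 127 weeks, 1.28 at 131 weeks and 25.6 at 136 weeks. The summed level of 12 pan-leukocyte genes was 101 to 110 CPM in young samples and 119, 104 and 390 CPM in the aged samples at 127, 131 and 136 weeks. Lcp1 alone made up most of the young sums. Without it, a choice made after the data were seen, the other 11 genes summed to 17.4 to 30.4 CPM in young samples and to 59.2, 19.8 and 234 CPM in the aged samples in the same order. Counts of Lars2 and Rn45s also set libraries apart, at 0.960% and 1.29% of the total in the 127-week and the third young sample against 4.68% to 5.53% in the others. In bulk samples, fewer cells of a type and less RNA per cell cannot be told apart.

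Sca-1 and Ly6e were among the most abundant transcripts of these ECs, Ly6c1 was intermediate, and Ly6c2 and Ly6d were scarce. Levels between genes were compared per transcript length, in FPKM, the length-scaled unit of the deposited table. Ly6a averaged 1089 ± 227 FPKM in young and 1291 ± 548 FPKM in aged ECs (mean ± SD, n = 3 per group, as for all groups below). By mean FPKM it ranked 49 in young and 40 in aged ECs among 24346 genes. Ly6e averaged 607 ± 98.2 FPKM in young and 892 ± 410 FPKM in aged ECs, with ranks of 105 and 64. Ly6a was above Ly6e within every sample, by 0.35 to 0.96 in the log2 ratio of FPKM, although the ranges of the genes over all samples overlapped. Ly6c1 was at 130 to 432 FPKM, below the lowest Ly6e value of 497 FPKM in every sample. Ly6d spanned 0.130 to 8.83 FPKM and Ly6c2 0.212 to 15.8 FPKM, so their order was not fixed.

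The comparison of aged with young ECs asked whether these surface markers change with age. All 5 fold changes were above 0, as were those of 51.1% of the 14612 genes tested. None of the 5 passed the test (edgeR quasi-likelihood test, Benjamini-Hochberg adjusted p below 0.05 and log2 fold change beyond 1), and neither did any other gene (0% called). At an unadjusted p below 0.05 there were 1847 genes, or 12.6%, and 1 of the 5 members, Ly6c2. In none of the members did the aged and young samples separate, whereas the groups did not overlap in 17.9% of all genes.

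**Figure D1:**
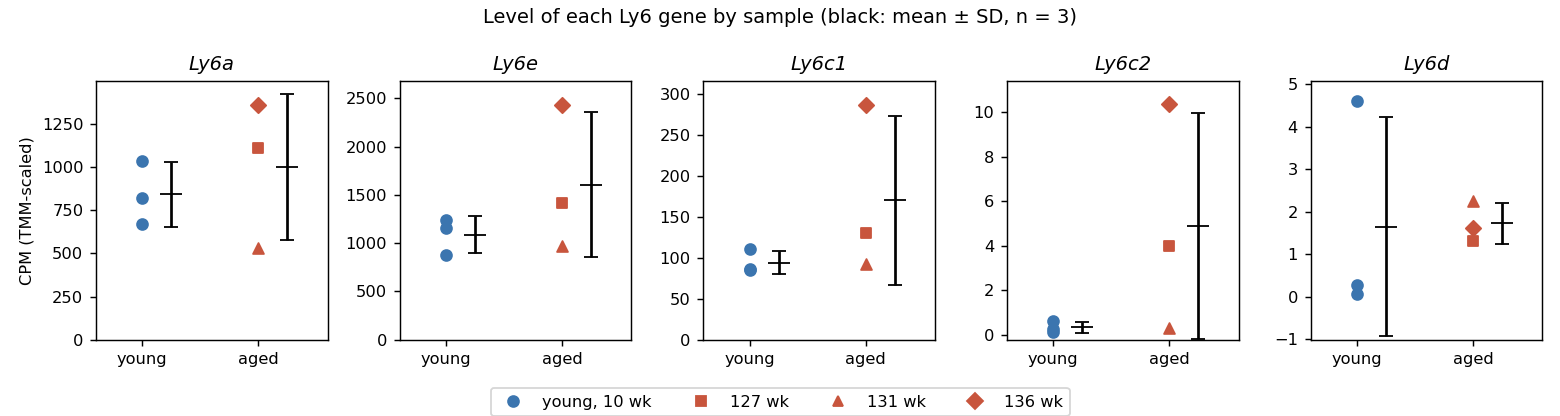
Each panel plots 1 Ly6 gene in TMM-scaled CPM on its own linear axis, with young samples as circles, each aged sample by its own symbol, and the mean ± SD in black. The 136-week sample was highest for Ly6a, Ly6e, Ly6c1 and Ly6c2, and the 131-week sample lay near or below the young samples for these genes.

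Ly6a (Sca-1) was at 1038, 819 and 668 CPM in the young samples and at 1109, 533 and 1363 CPM in the aged samples at 127, 131 and 136 weeks. The aged samples held both the lowest and the highest value of all 6. The log2 fold change of aged over young was 0.25 (SE 0.35, adjusted p = 0.835 by edgeR). Its direction rested on the 136-week sample, without which it was -0.034.

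Ly6e was at 1237, 1156 and 875 CPM in young ECs. In aged ECs it was at 1413, 969 and 2435 CPM. The samples of 127 and 136 weeks exceeded all young samples, and the 131-week sample lay inside the young range. The log2 fold change was 0.56 (SE 0.34, adjusted p = 0.562 by edgeR) with all samples and 0.13 without the 136-week sample.

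Ly6c1, the Ly-6C gene known from ECs, had close young values of 86.7, 85.9 and 111 CPM. Aged values were 131, 93.1 and 288 CPM, of which again only that of 131 weeks fell among the young. This gave a log2 fold change of 0.85 (SE 0.39, adjusted p = 0.431 by edgeR). Without the 136-week sample it was 0.25, and without the 131-week sample it was 1.15 (adjusted p = 0.162 by edgeR).

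Ly6c2, the Ly-6C gene known from monocytes, was counted 17, 6 and 4 times in young samples and 116, 8 and 255 times in aged samples. These counts were 0.633, 0.271 and 0.126 CPM in young and 3.99, 0.311 and 10.4 CPM in aged ECs. The level at 131 weeks was within the young range, and the other aged levels were far above it. The log2 fold change was 3.82 (SE 1.19), or 14.1-fold, with an unadjusted p of 0.0139 and an adjusted p of 0.299 by edgeR. DESeq2 gave 3.83 (SE 1.04) with an adjusted p of 0.0115, past the threshold. It called 3.31% of the genes it adjusted, and 2.77% in this direction. Without the 136-week sample the edgeR fold change was 2.64 (adjusted p = 0.652).

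Ly6d was counted 124, 6 and 2 times in young samples and 38, 58 and 40 times in aged samples. The levels were 4.61, 0.271 and 0.0631 CPM in young and 1.31, 2.26 and 1.62 CPM in aged ECs. The aged samples were alike, whereas the first young sample stood above all others and the remaining young samples near or under the level of 3 counts. Aged over young, the log2 fold change was 0.066 (SE 1.24, adjusted p = 0.990 by edgeR), and 3.39 without the first young sample (unadjusted p = 0.00696, adjusted p = 0.450). In that young sample Klk1, the gene with the highest mean CPM on the plasmacytoid dendritic cell list, was at 8.26 CPM and at no more than 0.365 CPM elsewhere. Spib and Ccr9 of this list were also highest there, at 1.38 and 0.707 CPM, while Siglech was highest at 136 weeks. The median of this list in that young sample was 0.48 relative to the young mean on log2(CPM + 1). Marco, a macrophage receptor named after its values were seen, was at 11.4 CPM there and at no more than 0.690 CPM elsewhere. It was the only one of the 15 monocyte and macrophage genes tested that was highest in this sample, where the median of the list was -0.050 relative to the young mean on log2(CPM + 1). The part of other cells in the Ly6d values was not tested.

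**Figure D2:**
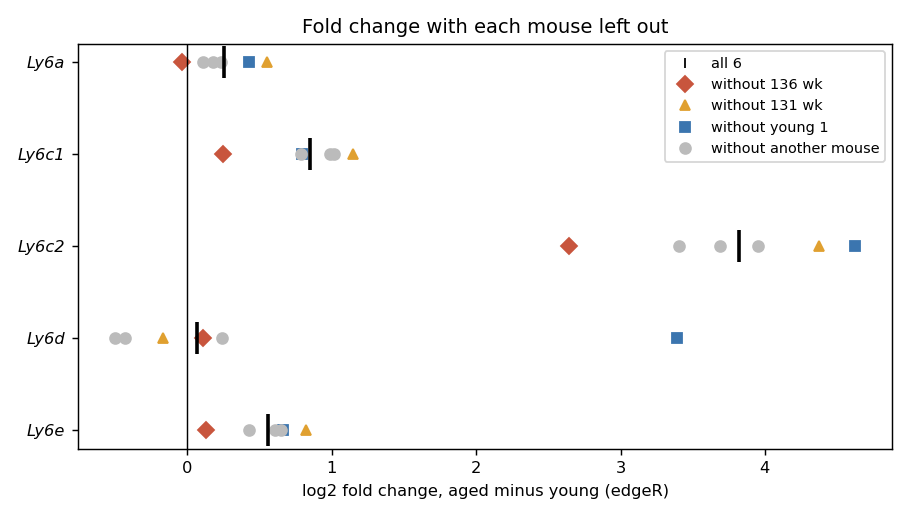
The log2 fold change of aged over young (edgeR, horizontal axis) is shown for each Ly6 gene with all 6 samples (black bar) and with each sample left out in turn (symbols). Leaving out the 136-week sample brought Ly6a to -0.034, Ly6c1 to 0.25 and Ly6e to 0.13, and leaving out the first young sample moved Ly6d to 3.39.

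The aged samples kept a common order in 4 of the 5 genes. Ly6a, Ly6c1, Ly6c2 and Ly6e were all lowest at 131 weeks, intermediate at 127 weeks and highest at 136 weeks, an order found in 18.4% of all genes tested. In these 4 genes the 136-week sample was the highest of all, as it was in 25.7% of all genes. Ly6d had the reverse position, being highest among aged samples at 131 weeks. With 1 sample at each aged age, this order cannot be told apart from differences between the animals.

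Whether members changed by different amounts was tested with the log2 ratio between genes within each sample. Among the 10 pairs, the smallest exact permutation p from CPM was 0.2 (two-sided), and the smallest that 3 against 3 samples allow is 0.1. After adjustment over the pairs the smallest p was 0.5. The Ly6c1-to-Ly6c2 ratio averaged 8.40 ± 1.34 in young and 6.02 ± 1.91 in aged ECs on the log2 scale, with overlapping samples. The Ly6a-to-Ly6e ratio averaged -0.38 ± 0.12 in young and -0.68 ± 0.29 in aged ECs on the same scale of CPM, with an exact permutation p of 0.3.

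The share of Ly6c2 among the reads of both Ly-6C genes was small in all samples. It was 0.725%, 0.314% and 0.114% in young and 2.96%, 0.333% and 3.48% in aged ECs at 127, 131 and 136 weeks. The exact 95% binomial interval was 2.45% to 3.54% at 127 weeks and 3.07% to 3.92% at 136 weeks, whereas at 131 weeks it was 0.144% to 0.655%. Such intervals cover counting error only, since the libraries had no molecular identifiers to tell copies of a molecule apart. The mean share was 1.87 percentage points higher in aged ECs (two-sided exact permutation p = 0.2). Summed to a single gene, Ly6c1 and Ly6c2 had a log2 fold change of 0.89 (SE 0.40, adjusted p = 0.423 by edgeR), close to that of Ly6c1.

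Ly6c2 varied together with leukocyte genes over the samples. All 12 pan-leukocyte genes had fold changes above 0, with a median log2 fold change of 2.14 and 6 at an unadjusted p below 0.05, against 8.32% of all genes in this direction. All 12 were highest at 136 weeks, as were 25.7% of all genes. Lyz2, the lysozyme of monocytes and macrophages, was at 15.2 to 31.0 CPM in young ECs and at 103, 19.4 and 327 CPM at 127, 131 and 136 weeks. The 15 monocyte and macrophage genes had a median of 1.11, with 11 above 0 and 4 below, and 12 of them were highest at 136 weeks. C1qb, next to Lyz2 in mean CPM on this list, was among those below, with a log2 fold change of -0.88. It was at 28.8, 58.9 and 33.0 CPM in young and 23.1, 5.25 and 37.3 CPM in aged ECs. Clec4f, also among the most abundant of the list, had a log2 fold change of 0.78 with overlapping groups. Per read of Ptprc there were 0.405, 0.231 and 0.0741 reads of Ly6c2 in young and 0.527, 0.242 and 0.404 in aged ECs, so that this ratio overlapped between the ages. Per read of Ccr2, a chemokine receptor of inflammatory monocytes named after its values were seen, there were 0.944, 0.5 and 0.267 in young and 3.05, 0.800 and 1.85 in aged ECs, above all young samples at 127 and 136 weeks. For Itgam, also on the monocyte and macrophage list, the ratio was 0.895, 2 and 0.571 in young and 2.07, 1 and 1.09 in aged ECs. There the samples of 131 and 136 weeks lay inside the young range. For Lyz2 it was 0.0208, 0.0178 and 0.00407 in young and 0.0387, 0.0161 and 0.0317 in aged ECs. With the mean of the pan-leukocyte genes as a term in the edgeR fit, the log2 fold change of Ly6c2 was 1.42 (adjusted p = 0.965), that of Ly6c1 was 0.041, that of Ly6e -0.076 and that of Ly6a -0.34. This mean was 4.19 at 136 weeks and 1.62 to 2.55 in the other samples on log2(CPM + 1). The term thus mostly set the 136-week sample apart, and the part of leukocytes in these values was not tested.

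**Figure D3:**
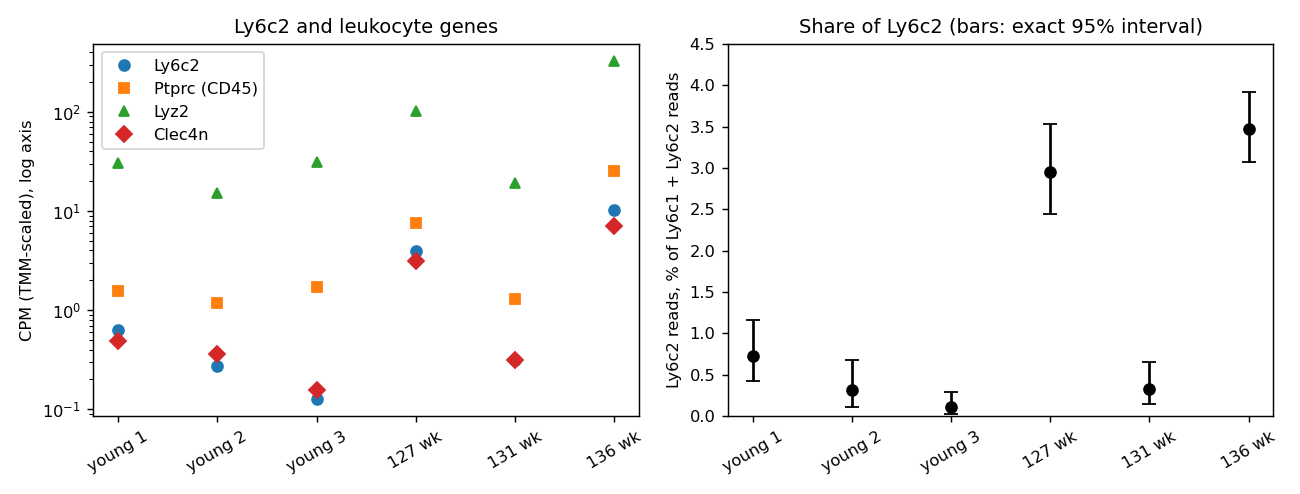
The left panel plots CPM on a log axis for Ly6c2, Ptprc, Lyz2 and Clec4n, a myeloid lectin chosen after its values were seen and equal to Ly6c2 at 131 weeks, and the right panel plots the share of Ly6c2 in the reads of both Ly-6C genes in percent with exact 95% intervals. Ly6c2, Ptprc, Lyz2 and Clec4n were highest at 136 weeks and next highest at 127 weeks, and the share of Ly6c2 was 2.96% and 3.48% in these samples.

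Most other leukocyte lists also had medians above 0. The median log2 fold change was 2.61 over 14 T and NK cell genes, 2.65 over 12 neutrophil genes and 1.82 over 10 B and plasma cell genes. By sample, the neutrophil median relative to the young mean on log2(CPM + 1) was -0.021, -0.080 and 1.65 at 127, 131 and 136 weeks. The B and plasma cell median was -0.0045, -0.14 and 1.16 in the same order. For both lists, only the 136-week sample among the aged lay above 0, and the first young sample was at 0.17 and 0.14. The T and NK cell median was 0.46, 0.0048 and 1.54. Nkg7, a granule protein of T and NK cells, was at 0.0946 to 0.226 CPM in young ECs and at 2.44, 0.117 and 10.5 CPM in aged ECs. S100a9, a calcium-binding protein of neutrophils, was at 0.126 to 0.930 CPM in young and 1.62, 0.972 and 14.3 CPM in aged ECs. Of the 10 B and plasma cell genes, 7 had fold changes above 0 and 3 below. Jchain, the most abundant of them by mean CPM, was at 2.79, 0.180 and 0.158 CPM in young and 1.72, 0.311 and 11.9 CPM in aged ECs. Fcrla was lower in every aged sample, at 3.22 to 4.24 CPM in young and 0.550 to 1.34 CPM in aged ECs. Such non-overlap was found in 8.33% of all genes. The plasmacytoid dendritic cell list, the cells in which Ly6d is known, had 4 genes tested with a median of -0.31.

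Interferon-responsive genes were described as the other genes of the pathway that induces Ly6a and Ly6e. Of 30 type I interferon genes, 24 had fold changes above 0 and 3 of them an unadjusted p below 0.05, against 8.32% of all genes in this direction. The median log2 fold change was 0.31, beside 0.0098 for all genes. As with 4 of the 5 Ly6 genes, 27 of the 30 followed the aged order of 131, 127 and 136 weeks, against 18.4% of all genes. This order was also found in 15 of the 25 interferon-gamma genes. Of the leukocyte lists, 13 of 15 monocyte and macrophage, 10 of 12 pan-leukocyte and 5 of 12 neutrophil genes followed it. Irf7, a transcription factor of the interferon response, was at 88.6, 84.5 and 155 CPM in young and 152, 55.8 and 612 CPM in aged ECs. Bst2, which tethers virus particles, was at 304 to 354 CPM in young and 292, 256 and 419 CPM in aged ECs.

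The list for interferon-gamma had 25 genes, of which 21 had fold changes above 0, against 51.1% of all genes. In 5 of them the unadjusted p was below 0.05 in this direction, against 8.32%. The median of the list was 0.45. Irf1, an early transcription factor of the interferon-gamma response, separated the ages, at 599, 629 and 1006 CPM in young and 1882, 1446 and 2935 CPM in aged ECs. Its log2 fold change of 1.49 (SE 0.33) had an adjusted p of 0.232 by edgeR. The antigen-presenting genes B2m (-0.13), H2-K1 (0.076) and H2-D1 (-0.071) had log2 fold changes near 0. With the leukocyte term, the median of the type I list was -0.37 and that of the interferon-gamma list was -0.028.

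**Figure D4:**
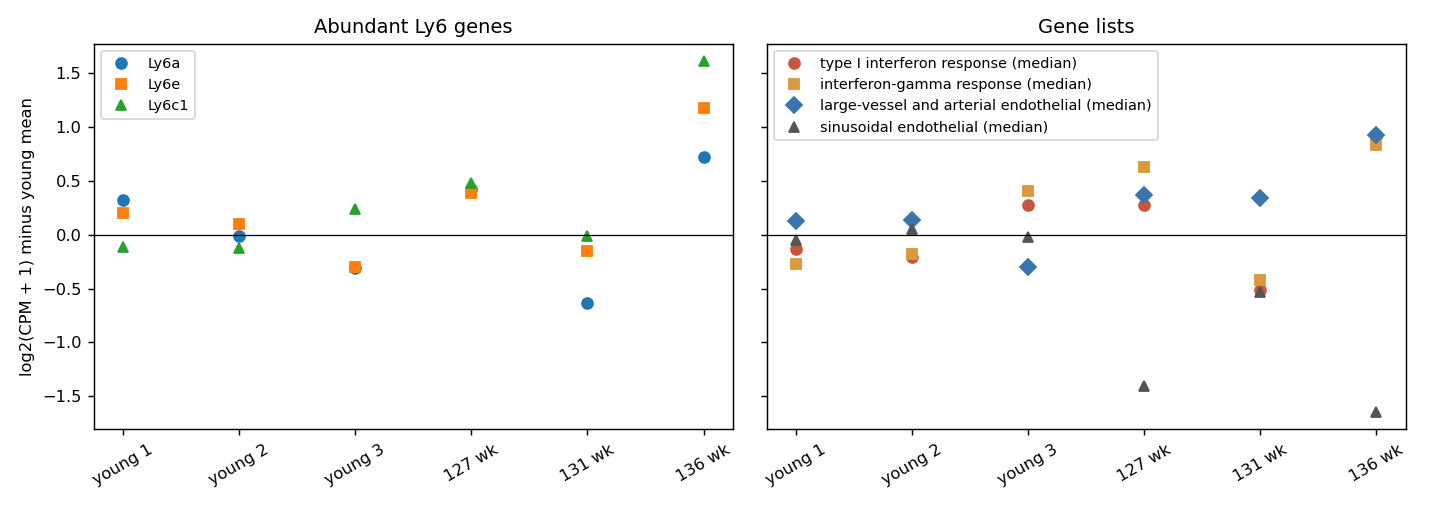
Each point is log2(CPM + 1) minus its young mean in 1 sample, for the abundant Ly6 genes (left) and as the median over the genes of 4 lists (right). Ly6a, Ly6e, Ly6c1 and both interferon lists were highest at 136 weeks and lowest among aged samples at 131 weeks, while the sinusoidal list was below 0 in every aged sample.

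Marker lists of EC subtypes had medians on opposite sides of 0, and their part in the Ly6 values was not tested. Of 12 sinusoidal EC genes, 11 had fold changes below 0, 8 of them at an unadjusted p below 0.05, against 4.32% of all genes in this direction, and the median was -0.97. Stab2, a scavenger receptor of sinusoidal ECs, was at 2901, 3198 and 3021 CPM in young and 504, 1759 and 542 CPM in aged ECs. Clec4g, a lectin of sinusoidal ECs, was at 3669 to 4252 CPM in young and 1356, 2367 and 565 CPM in aged ECs. Of 16 genes of large-vessel and arterial ECs, 14 had fold changes above 0, against 51.1% of all genes, and the median was 0.68. An unadjusted p below 0.05 was found for 6 of them in this direction, against 8.32% of all genes. Of the 2 below 0, Gja4 was at 595, 1018 and 474 CPM in young and 451, 550 and 226 CPM in aged ECs. Fbln2, an extracellular matrix protein, was at 417 to 617 CPM in young and 968, 626 and 2086 CPM in aged ECs. Vwf, the von Willebrand factor, overlapped between the ages at 1726 to 2780 CPM and 1794 to 3110 CPM. The pan-endothelial list of 12 genes had a median of -0.19, with 8 below 0 and 4 above. Its members Kdr, a receptor of vascular endothelial growth factor, and Eng, a co-receptor of TGF-beta, had log2 fold changes of -0.65 and -0.33. That of Pecam1 was 0.015.

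Markers of other liver cells summed to 209 to 363 CPM for 12 hepatocyte genes and 155 to 768 CPM for 12 stellate cell and fibroblast genes. The most abundant gene of each list held a large part of its sum, Trf at 105 to 243 CPM and Reln at 69.9 to 495 CPM. Trf, at 0.33, was the only hepatocyte gene with a log2 fold change above 0. The hepatocyte genes had a median log2 fold change of -0.88, and Alb, which encodes albumin, was at 36.5 to 74.7 CPM in all samples. Stellate cell and fibroblast genes had a median of -0.084. The 9 mesothelial and cholangiocyte genes tested had a median of 0.79, with 7 above 0 and 2 below. In 4 of them every aged sample was above every young sample, against 9.62% of all genes. In the 2 below 0 every aged sample was below every young sample, against 8.33%. Krt8, an epithelial keratin, was at 7.99 to 14.5 CPM in young and 23.1 to 33.6 CPM in aged ECs.

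Of the relatives in the Ly6/uPAR family, 33 of 39 listed genes were in the count table and 13 were tested. Their median log2 fold change was 0.052, with 8 above and 5 below 0. Gpihbp1, which carries lipoprotein lipase across capillary ECs, was the most abundant at 2469, 2275 and 2263 FPKM in young and 1365, 2099 and 1447 FPKM in aged ECs. All aged samples were below all young samples, as in 8.33% of all genes. Its log2 fold change was -0.51 (SE 0.22, unadjusted p = 0.0490, adjusted p = 0.393 by edgeR), opposite to the fitted direction of the 5 Ly6 genes.

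Plaur, the urokinase receptor of the same family, separated the ages in the other direction. It was at 20.2, 30.9 and 32.6 FPKM in young and 64.1, 50.4 and 164 FPKM in aged ECs, with a log2 fold change of 1.76 (SE 0.45, unadjusted p = 0.00520, adjusted p = 0.245 by edgeR, and 0.00495 by DESeq2). Lynx1, which modulates nicotinic acetylcholine receptors, was at 0.946 to 1.97 FPKM in young and 2.30 to 4.63 FPKM in aged ECs. Its log2 fold change was 1.03 (SE 0.38, unadjusted p = 0.0307, adjusted p = 0.354 by edgeR). Non-overlap in this direction was found in 9.62% of all genes.

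Cd59a, an inhibitor of the complement membrane attack complex, was at 353, 315 and 466 FPKM in young and 347, 312 and 145 FPKM in aged ECs. Here the 136-week sample was the lowest, and the log2 fold change was -0.49 (SE 0.33, adjusted p = 0.602 by edgeR). The other relatives named by the rule, Ly6f, Ly6g6d, Ly6g6e, Lypd1 and Lypd6, were at 0.297 to 5.06 FPKM with overlapping groups and adjusted p-values of 0.824 or above. Ly6i, the neighbour that shares windows with Ly6a and was named after its values were seen, was counted 2, 4 and 20 times in young and 26, 5 and 92 times in aged samples, with a log2 fold change of 2.40 (SE 1.18, adjusted p = 0.460 by edgeR).

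**Figure D5:**
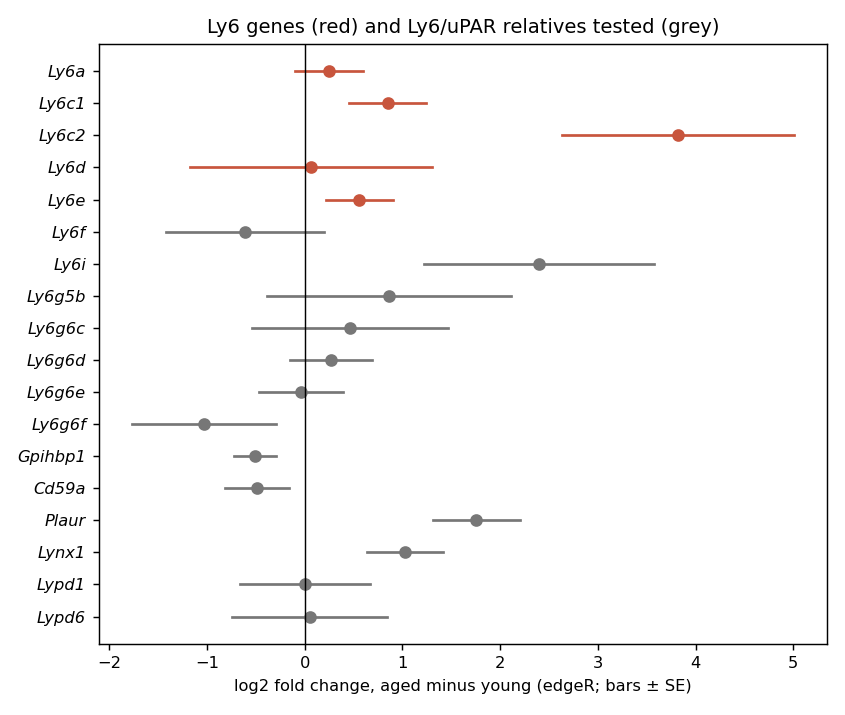
Points are log2 fold changes of aged over young (edgeR, horizontal axis) with bars of ± 1 SE for the 5 Ly6 genes (red) and the 13 Ly6/uPAR relatives tested (grey). Ly6c2 lay farthest to the right at 3.82, Plaur and Lynx1 were above 0, and Gpihbp1 was at -0.51.

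The enzymes that build and attach the GPI anchor, needed for these proteins to reach the cell surface, were measured as a list of 30 genes, of which 29 were tested. Fold changes were below 0 for 26 and above 0 for 3, with a median of -0.13, and 8 of the 29 were lower in every aged than in every young sample, against 8.33% of all genes. Pigq and Pigk, subunits of the first and of the final enzyme complex, had log2 fold changes of -0.32 (SE 0.13) and -0.27 (SE 0.12), both with groups that did not overlap. Gpaa1 and Pigt, of the final complex, were at -0.15 each with overlapping groups. The smallest adjusted p was 0.336 by edgeR, and 2 of the 29 had an unadjusted p below 0.05 and a fold change below 0, near the 4.32% of all genes in this direction. Without any scaling beyond library totals the median was -0.082, while the median of all genes moved to 0.075.

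The genes most like each abundant member over the 6 samples were found by Pearson's r of log2(CPM + 1) among 8912 genes, as a description of samples that share the young-aged design and the same libraries. For Ly6a these were Trf (r = 0.983), which encodes the iron carrier transferrin and is also on the hepatocyte list, Pfkp (0.975), a glycolytic enzyme, and Psmb9 (0.972), a subunit of the immunoproteasome. For Ly6c1 they were Frzb (0.999), an inhibitor of Wnt signalling, Isg15 (0.993), an interferon-induced ubiquitin-like protein, and Ctss (0.989), a lysosomal protease. For Ly6e they were Pqbp1 (0.993), Nov (0.989) and Stard13 (0.988). Many further genes had an r of at least 0.896 with Ly6a, 0.951 with Ly6c1 and 0.960 with Ly6e. Isg15 was at 36.6, 32.3 and 44.3 CPM in young and 62.8, 43.1 and 188 CPM in aged ECs, and Psmb9 was at 89.5 to 107 CPM in young and 116, 74.6 and 124 CPM in aged ECs.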

How the data were processed

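RNA was measured in 3 young and 3 aged samples. Bases were called with CASAVA 1.8.2 and 75-base single-end reads were mapped to mm9 with TopHat2 2.1.0, as given in the study's methods. The authors deposited whole-number read counts per gene without normalization, and FPKM values made with Cuffnorm 2.2.1. The counting program, its annotation and its use of strand are not given in the sources used here, so overlapping and antisense genes are uncertain.

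A gene entered the test if 1 sample or more reached a CPM of 0.5, as did 14612 of 24421. Counts were scaled by TMM and tested with the quasi-likelihood test of edgeR 4.0.16 (R 4.3.3), with Benjamini-Hochberg adjustment over all genes tested. Standard errors were taken from the fold change and F. DESeq2 1.42.0 and limma 3.58.1 were alternatives. The fitting was tested on simulated data. For single values, exact permutation tests (two-sided) were used. The samples of a group are described as independent, and p-values measure the spread between them. Young samples 1 and 2 were more alike in their counts than any other pair within a group. Their chi-square per degree of freedom was 20.2, against 146 to 186 for the other pairs. Whether these samples are independent was not tested.

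Named were the 5 members, relatives with a mean FPKM of at least 1 or an unadjusted p below 0.05, up to 4 genes with the highest mean CPM of each other list, Ptprc, and for members with a mean CPM of at least 10 the 3 genes with the highest Pearson's r. The members and lists were chosen with earlier results of these data known. All 5 members matched GENCODE and 2 of 5 the RefSeq promoters. Spib is on 2 lists. One gene that the rule names is not reported here.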

Additional observations from a re-analysis of the deposited data

How the results depend on the processing

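No paired analysis was possible because young and aged samples came from different mice, and the labels match no young sample to an aged one. The fold change of Ly6a was -0.034 without the 136-week sample and -0.34 with a leukocyte term, and that of Ly6e was -0.076 with this term. Ly6d was at -0.43 without young sample 2, -0.50 without young sample 3, -0.17 without the 131-week sample and -0.024 with the leukocyte term. Ly6c2 passed the threshold with DESeq2 (3.83, adjusted p = 0.0115). The cause of these changes was not tested. With 1 sample left out, the log2 fold change ran from -0.034 to 0.55 for Ly6a, 0.25 to 1.15 for Ly6c1, 2.64 to 4.63 for Ly6c2, -0.50 to 3.39 for Ly6d and 0.13 to 0.82 for Ly6e. The adjusted p of Ly6c2 ran from 0.0115 to 0.965 over its alternatives.

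Genes called higher numbered 3 with no filter on low counts, 395 with DESeq2, 13 with limma-voom, 1 on log2(FPKM + 0.1), 1 with a term for the library cluster, 6 with the leukocyte term and 0 to 1 with 1 sample left out, the 1 being without the 131-week sample. Genes called lower numbered 1, 77, 2, 1, 1 and 10 under the same settings in that order, and 0 with 1 sample left out.

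The median of the Ly6/uPAR relatives was 0.29 on log2(FPKM + 0.1), 0.33 with the leukocyte term and -0.089 to 0.34 with 1 sample left out. That of GPI anchor synthesis was -0.082 with library totals, -0.23 with limma-voom and -0.22 to -0.13 with 1 left out. The type I interferon median was -0.37 with the leukocyte term and -0.11 to 0.63 with 1 left out, and the interferon-gamma median was 0.19 to 0.76 with 1 left out. The difference in the Ly6c2 share was 1.26 to 2.83 percentage points with 1 left out. Within the library pair of few Lars2 and Rn45s counts, aged minus young was 0.73 for Ly6a, 0.24 for Ly6c1, 2.15 for Ly6c2, 1.12 for Ly6d and 0.69 for Ly6e on log2(CPM + 1). In the other libraries it was -0.11, 0.92, 1.42, 0.13 and 0.36. The first of these rests on 1 sample per age. From FPKM, 0 of the 3 genes most like Ly6e were shared with those from counts, against 3 of 3 for Ly6a and Ly6c1. Ly6c2 and Ly6d rest on few reads, and differences of a few counts were not detectable at this depth.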

Other observations

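Ly6c2 was too low for the search for similar genes, so a search among 12454 genes with a mean CPM of at least 1 was added after the data were seen. The genes most like it over the 6 samples were Clec4n (r = 0.999), a C-type lectin of macrophages and other myeloid cells, Thsd4 (0.998), an extracellular matrix protein, and Chil3 (0.997), a chitinase-like protein of macrophages. Many further genes had an r of 0.978 or above, so the 3 named are not set apart. Clec4n was at 0.484, 0.361 and 0.158 CPM in young and 3.16, 0.311 and 7.02 CPM in aged ECs at 127, 131 and 136 weeks. Chil3 was at 0.484 CPM in the first young sample and counted 0 times in the other young samples, and at 3.34, 0.233 and 10.8 CPM in aged ECs. Thsd4 was more abundant, at 4.16 to 5.36 CPM in young and 13.6, 4.12 and 24.7 CPM in aged ECs.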
